A study of Onthophagus taurus with 66 samples.

Results

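*drumstick* (transcript XM_023046385.1) is a gene of the odd-skipped family of zinc finger proteins, and its expression was followed here through the developing head of the horned beetle *Onthophagus taurus*. It was chosen by its name as 1 of 23725 transcripts counted. The name comes from the study's list of transcripts that differed between head regions of these same libraries, so differences between regions are not independent of how the transcript was found. The dorsal head epithelium of 6 male and 5 female pre-pupae, heavy larvae taken shortly before pupation, was cut into 6 pieces per animal, and each piece was sequenced as a separate library. The pieces were the left and right lateral anterior head (LatA), the left and right lateral posterior head (LatP), the medial anterior head (MA) and the medial posterior head (MP). Males of this weight grow a pair of horns from the posterior head and females do not, and the study compared neighboring regions within each sex. No animal was treated or genetically altered, no strain is given, no pieces were pooled, and the borders were set by eye from landmarks after eye remnants, labrum and tissue under the epithelium had been removed by hand.

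In *Drosophila*, Drumstick binds the protein Lines and relieves the block that Lines puts on Bowl, another protein of the odd-skipped family. Genes of this family act in patterning of the gut, at the segment borders of the leg, where Notch signaling turns them on, and at the posterior margin of the eye disc, where they act upstream of *hedgehog*. They are best known as genes that mark borders or margins of an epithelium. What *drumstick* does in a beetle head is not known from these data, which hold RNA counts only.

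The libraries held between 10807956 and 17048942 counts (median 13246361), so that 3 counts, taken as the floor of detection, equal 0.176 to 0.278 CPM, the unit of counts scaled by library total. All 66 values of *drumstick* were whole numbers. Transcripts used as markers of other tissues were counted in the pieces. Whether they came from tissue left over by the dissection was not tested. Summed muscle transcripts (10 transcripts) had medians of 275 CPM in male MP and 519 CPM in female MP against 22.4 and 33.8 CPM in MA. Summed photoreceptor transcripts (*glass*, *arrestin 2* and *chaoptin*) had medians of 17.9 and 29.3 CPM in male and female LatP and stayed at or under 3.29 CPM in every MP library. Transcripts of the epidermal markers looked for (*grainyhead*, *shotgun*, *coracle*) were not among the 368 transcripts that have a name here, so the labelled epithelium could not be checked by them. The muscle, photoreceptor, hemocyte and neuron transcripts were found among these same names. The names come from the study's list of transcripts that differed between regions, so differences of these markers between regions are not independent evidence.

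*drumstick* was a transcript of the posterior head in both sexes. Of its 5422 counts over all libraries, 5176 (95.5%) lay in the 33 posterior libraries, where no library held fewer than 20 counts. Of the 11 MA libraries, 7 held no count and none held more than 3, and of the 22 LatA libraries, 9 held no count, 14 held 3 or fewer and 8 held more. By mean CPM the order was the same in males and females, with MA lowest, then LatA, LatP and MP. In males the place of MP above LatP was not kept by the medians, which were 8.75 CPM in LatP and 8.25 CPM in MP. LatP was higher than MP in 4 of 6 males.

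**Figure D1:**
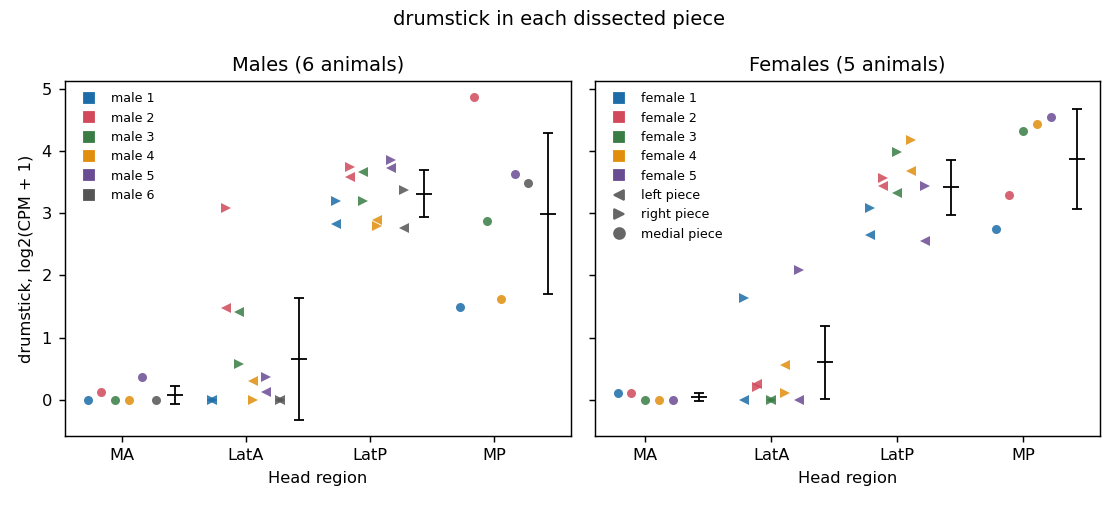
*drumstick* in each dissected piece, on the scale log2(CPM + 1), by head region for males (left) and females (right). Each point is 1 library colored by animal, triangles point to the side of a lateral piece, and the bar beside each region is the mean ± SD over animals of log2(CPM + 1). MA points lie at or near 0, LatP and MP points lie above nearly all LatA points, and the right LatA piece of male 2 (7.51 CPM) stands inside the range of LatP.

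Along the midline, the difference between the anterior and the posterior head was largest. Male MA libraries held 0, 1, 0, 0, 3 and 0 counts in males 1 to 6, and male MP libraries held 20, 301, 75, 21, 127 and 111. Female MA libraries held 1, 1, 0, 0 and 0 counts in females 1 to 5, and female MP libraries held 79, 80, 319, 278 and 381. Every MP library was above every MA library in both sexes, which was also true of 1.39% of the transcripts tested in males and 1.26% in females. In CPM after TMM scaling, males had 0.0606 ± 0.113 in MA and 10.02 ± 9.79 in MP (SD, n = 6), and females had 0.0309 ± 0.0424 and 15.3 ± 7.53 (SD, n = 5). The ratio of MP to MA, taken from summed counts and library sizes, was 173 in males (4 MA counts, exact 95% interval 67.4 to 638) and 572 in females (2 MA counts, 158 to 4728), and these intervals cover counting error only. Both ratios turned on single libraries, chosen for mention after their values were seen. The male ratio was 587 without the MA library of male 5 and 112 without the MP library of male 2, and the female ratio was 931 or 937 without the MA library of female 1 or 2.

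The test for this comparison was edgeR's quasi-likelihood F-test with Benjamini-Hochberg adjustment over all transcripts tested, read with the study's thresholds of an adjusted p under 0.001 and a log2 fold change (log2FC) over 2 in size, and with looser ones of 0.05 and 1. A log2FC is that of the region named first over the region named second. For MA with MP, *drumstick* had a log2FC of -7.17 in males (SE 1.06, edgeR adjusted p = 0.00375) and of -8.66 in females (SE 0.800, adjusted p = 0.00205). It passed the looser thresholds in both sexes and the strict ones in neither. Among all transcripts, 0.112% of 12485 in males and 0.0308% of 12978 in females passed the strict thresholds, and 2.24% and 0.593% the looser ones. Ranked by p, *drumstick* was in place 6 in females and in place 69 in males. These fitted values rest on a handful of MA counts and are no bound on the fold. With DESeq2, *drumstick* passed the strict thresholds in both sexes (log2FC -7.44 and -9.05). Taken over animals with an exact sign-change permutation test of log2(CPM + 1), MP was higher in 6 of 6 males (p = 0.03125, adjusted p = 0.125 over 8 region comparisons) and in 5 of 5 females (p = 0.0625, adjusted p = 0.125), which are the smallest p-values these numbers of animals allow.

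Muscle transcripts differed along the same axis. Of the 10 muscle transcripts, 6 of the 9 tested in males and 1 of the 10 tested in females passed the looser thresholds, each higher in MP. The same thresholds were passed, in either direction, by 2.24% of all transcripts tested in males and 0.593% in females. The summed muscle level ranged from 6.77 to 35.9 CPM in male MA and from 41.5 to 748 CPM in male MP, and from 24.7 to 677 CPM in female MA and from 30.8 to 844 CPM in female MP. The female MA library at 677 CPM, chosen for mention after its value was seen, was above the median of female MP. No female MA library held more than 1 *drumstick* count. Whether muscle tissue had a part in the *drumstick* difference was not tested. In bulk pieces, fewer cells of a type and less RNA per cell cannot be told apart.

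In the lateral head, *drumstick* was also higher in the posterior pieces, with a smaller and more variable difference. The 12 male LatA libraries held between 0 and 95 counts (median 2), and the 12 male LatP libraries between 67 and 209 (median 114). The 10 female LatA libraries held between 0 and 50 counts (median 1.5), and the 10 female LatP libraries between 75 and 391 (median 192). In females the regions did not overlap, as for 0.555% of the transcripts tested, whereas in males the right LatA piece of male 2 reached into the range of LatP. With left and right averaged, males had 1.00 ± 1.83 CPM in LatA and 9.24 ± 2.70 CPM in LatP (SD, n = 6), and females had 0.622 ± 0.684 and 10.1 ± 3.34 CPM (SD, n = 5). The ratio of LatP to LatA from summed counts was 9.36 in males (exact 95% interval 7.91 to 11.1) and 16.3 in females (13.2 to 20.4), again with counting error only. One library each held most of the LatA counts, and the ratio was 23.1 without the right LatA piece of male 2 and 33.1 without that of female 5.

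For LatA with LatP, the log2FC of *drumstick* was -3.19 in males (SE 0.779, edgeR adjusted p = 0.0128) and -4.01 in females (SE 0.848, adjusted p = 0.00947). It passed the looser thresholds in both sexes, as did 3.33% of 13615 transcripts in males and 2.59% of 14584 in females, and missed the strict ones, which 0.793% and 0.425% passed. Pieces with the same replicate number were taken to come from the same animal. With the animal as a block the male log2FC was -4.82 with an edgeR adjusted p of 8.9e-05, which passed the strict thresholds. With left and right counts added and the same block, neither sex passed the looser thresholds (adjusted p = 0.0516 in males, 0.173 in females). Without male 2 and without a block, the male log2FC was -4.91 and the adjusted p 2.06e-04, which also passed. The looser thresholds were missed without male 3, 4 or 5 (adjusted p = 0.0627, 0.0502 and 0.0735), without female 4 (adjusted p = 0.112), and when the left and right counts were added without a block (adjusted p = 0.231 in males and 0.142 in females). LatP was higher than LatA in 6 of 6 males and in 5 of 5 females, with the same exact p-values as for MA with MP. All 3 photoreceptor transcripts were higher in LatP in both sexes at the looser thresholds, as were 2 muscle transcripts in each sex (of 9 tested in males and 10 in females) and, in females, the hemocyte transcript prophenoloxidase 2 (log2FC -3.20, edgeR adjusted p = 0.0336). The summed muscle level had medians of 35.9 CPM in LatA and 28.1 CPM in LatP of males, and of 46.98 and 162 CPM in females. Whether other tissue had a part in the *drumstick* difference was not tested. In MP, where no difference from LatP was detected, the summed photoreceptor level was 0.169 to 3.29 CPM in males and 0 to 0.299 CPM in females.

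**Figure D2:**
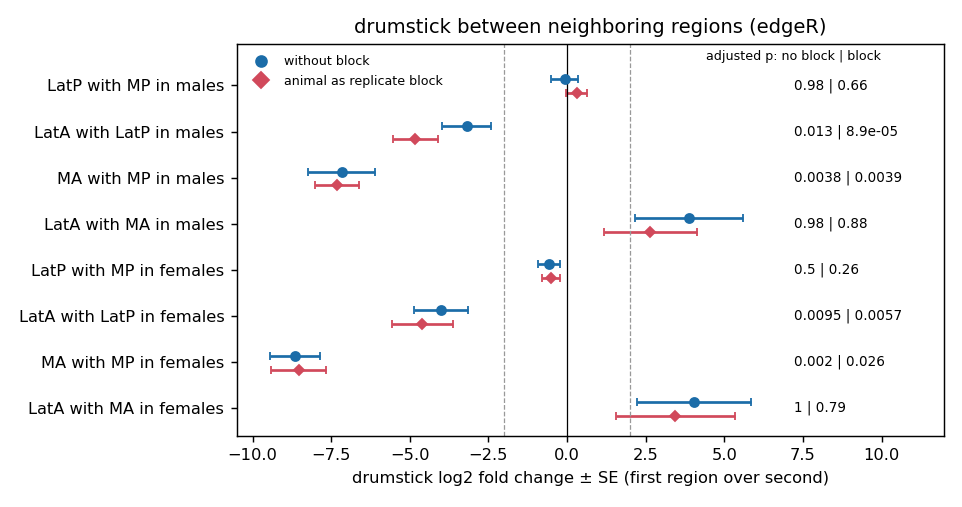
log2 fold change of *drumstick* between neighboring regions in each sex (edgeR), with the region named first over the one named second. Circles are fits without a block, diamonds are fits with the animal as replicate block, bars are ± SE, dashed lines mark a log2FC of 2 in either direction, and the adjusted p of both fits stands at the right. The comparisons of MA with MP and of LatA with LatP lie at -3.19 and below, and those of LatP with MP lie next to 0.

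Between LatP and MP, no difference in *drumstick* was detected in either sex. For LatP with MP the log2FC was -0.08 in males (SE 0.420, edgeR adjusted p = 0.976) and -0.57 in females (SE 0.336, adjusted p = 0.498), in comparisons where 0.554% and 0.252% of all transcripts passed the strict thresholds. Among single animals the direction was mixed, with LatP higher in 4 of 6 males and 2 of 5 females. The level in MP varied more between animals than that in LatP, with a coefficient of variation of 97.7% against 29.2% in males and of 49.1% against 33.1% in females. Male MP ranged from 1.80 CPM in male 1 and 2.08 CPM in male 4 to 28.3 CPM in male 2, whereas male LatP ranged from 6.20 to 12.9 CPM. Without male 2 the male log2FC turned to 0.48 and did not pass (adjusted p = 0.692).

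Animals with more *drumstick* in LatP tended to have more in MP, but this did not pass correction. Over the 11 animals, Pearson's r of log2(CPM + 1) was 0.65 (permutation p = 0.0329, adjusted p = 0.121 over 6 relations) and Spearman's rho was 0.66 (permutation p = 0.0311, adjusted p = 0.117). Without the 2 animals farthest from the median in LatP, r was 0.50. Among the 6 males alone r was 0.79 (exact permutation p = 0.075, adjusted p = 0.121). For left with right LatP over the 11 animals, r was 0.62 (permutation p = 0.043, adjusted p = 0.121).

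Between LatA and MA, no difference in *drumstick* was detected. For LatA with MA the log2FC was 3.89 in males (SE 1.71, edgeR adjusted p = 0.977) and 4.04 in females (SE 1.82, adjusted p = 1.0), and neither passed. LatA was above MA in 3 of 6 males and below it in 1, and it was above MA in 4 of 5 females. The remaining animals had no count in either region.

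No difference in *drumstick* between males and females was detected in any region. In LatP, where male horns form, the log2FC of males over females was -0.13 (SE 0.214, edgeR adjusted p = 0.763), in a comparison where 0.393% of 14494 transcripts passed the strict thresholds. In MP it was -0.63 (SE 0.663, adjusted p = 0.982), and in LatA 0.68 (SE 1.25, adjusted p = 0.871), while MA fell under the filter for testing. Exact permutation tests over the 11 animals gave p = 0.667 in LatP, 0.216 in MP, 0.983 in LatA and 0.697 in MA. The LatP result leans on the scaling of the libraries. TMM and plain library totals differed by 0.71 on the log2 scale for males against females in LatP, and with plain totals *drumstick* stood at 8.05 ± 2.68 CPM in males (SD, n = 6) and 14.8 ± 6.02 CPM in females (SD, n = 5; exact permutation p = 0.0346, adjusted p = 0.139 over the 4 regions).

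The sexes were also compared in their changes between regions, as the male minus the female log2FC. This difference was 0.81 for LatA with LatP (SE 1.08, edgeR adjusted p = 0.924), where 1.03% of transcripts passed an adjusted p of 0.05. It was 1.43 for MA with MP (SE 1.44, adjusted p = 1.0) and 0.49 for LatP with MP (SE 0.577, adjusted p = 1.0). None passed.

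Left and right pieces of a region differed in single animals but not in the tests. In female LatP the right piece held more *drumstick* than the left in 5 of 5 animals, with counts of 119, 183, 391, 306 and 222 on the right and 75, 136, 201, 206 and 108 on the left in females 1 to 5. The log2FC of left over right was -0.56 (SE 0.314, edgeR adjusted p = 1.0), and the exact permutation p was 0.0625, the smallest that 5 animals allow (adjusted p = 0.25 over 4 side comparisons). Male LatP showed no common direction, with the right piece higher in 4 of 6 males and a log2FC of -0.11 (SE 0.262, adjusted p = 1.0). In LatA the log2FC of left over right was -1.13 in males and -2.96 in females, and these rest on the few pieces described next.

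*drumstick* varied widely among LatA pieces. The 5 pieces with the most were the right piece of male 2 (95 counts, 7.51 CPM), the right piece of female 5 (50 counts, 3.23 CPM), the right piece of female 1 (27 counts, 2.09 CPM), the left piece of male 2 (20 counts, 1.77 CPM) and the left piece of male 3 (21 counts, 1.66 CPM). The left pieces of females 5 and 1 held no count. In these pieces *sister of odd and bowl*, a family member from the same stretch of the genome, was present too, with 20, 46, 9, 18 and 13 counts. Over the 22 LatA pieces, *drumstick* and *sister of odd and bowl* had an r of 0.87 in log2(CPM + 1), given as a description because the pieces come in pairs from 11 animals and share their library scaling. For *mirror* and *mab-21* (XM_023052985.1), which were also higher in the posterior head on average, the r was -0.28 and -0.22. In the right piece of male 2 *mab-21* had 0 CPM, *mirror* 1.34 CPM and the photoreceptor transcripts 0 CPM. The r was 0.27 for *hedgehog*, 0.42 for *invected*, 0.08 for summed muscle and -0.17 for summed photoreceptor transcripts.

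**Figure D3:**
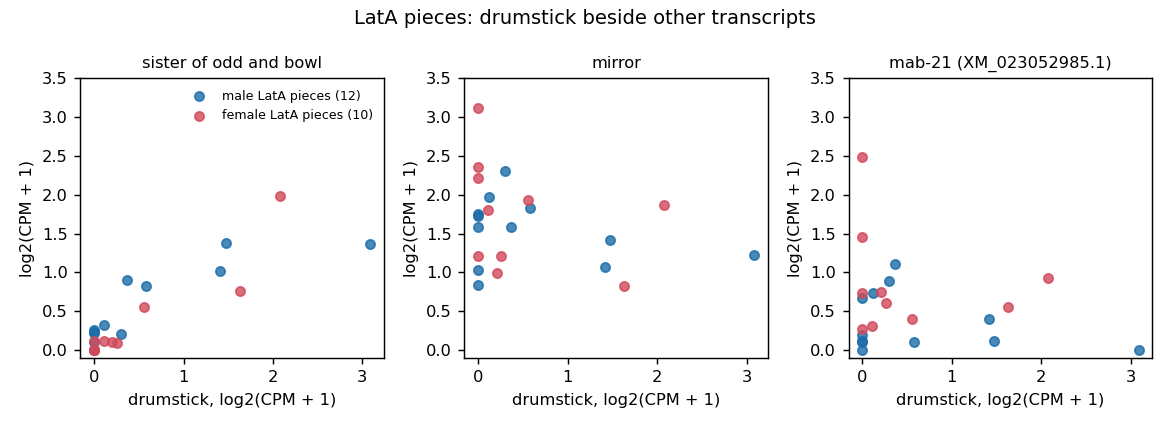
The 22 LatA pieces, 12 from males and 10 from females, with *drumstick* on the horizontal axis and *sister of odd and bowl*, *mirror* or *mab-21* (XM_023052985.1) on the vertical axis, all in log2(CPM + 1). Pieces with more *drumstick* had more *sister of odd and bowl* (r = 0.87), whereas *mirror* (r = -0.28) and *mab-21* (r = -0.22) did not rise with it.

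Of the other named genes of the odd-skipped family, *sister of odd and bowl* (XM_023046386.1), a close relative of *drumstick* in flies, was also higher in the posterior regions. It had 2.46 ± 0.609 CPM in LatP and 2.95 ± 3.26 CPM in MP of males against 0.572 ± 0.590 in LatA and 0.140 ± 0.122 in MA (SD, n = 6). In females it had 4.59 ± 2.35 CPM in LatP and 5.73 ± 3.83 in MP against 0.445 ± 0.602 in LatA and 0.0698 ± 0.0489 in MA (SD, n = 5). It passed the looser thresholds in the 4 comparisons of an anterior with a posterior region, with log2FC of -2.08 and -3.36 for LatA with LatP in males and females (edgeR adjusted p = 0.0137 and 0.0323) and of -4.28 and -6.18 for MA with MP (adjusted p = 0.0277 and 0.00927). Leaving out single animals raised these adjusted p-values to at most 0.0691, 0.186, 0.113 and 0.0956, and adding left and right counts raised those of LatA with LatP to 0.173 in males and 0.303 in females. With the animal as a block, male LatA with LatP passed the strict thresholds (log2FC -2.65, adjusted p = 3.79e-04), and with added counts and the block it passed neither (adjusted p = 0.0531). As with *drumstick*, male 2 had the highest male MP level, 9.30 CPM from 99 counts. In LatP *sister of odd and bowl* was lower in males than in females by a log2FC of -0.91 (SE 0.258, edgeR adjusted p = 0.0225), which is under the fold threshold. As with *drumstick*, this value leans on the scaling. Plain totals in place of TMM shift males against females by -0.71 on the log2 scale, which makes the difference larger, not smaller. The difference was not tested with plain totals. Whether the -0.91 differs from the -0.13 of *drumstick* was not tested.

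The last member, named odd-skipped-like (XM_023045113.1), was near the floor. It held 59 counts in the 12 male LatP libraries against 23 in LatA, and 149 counts in the 10 female LatP libraries against 12 in LatA. Female MP held 8, 5, 19, 2 and 22 counts and female MA held 0 in all 5 libraries. Male LatP and MP had means of 0.380 and 0.313 CPM, and female LatP and MP 0.741 and 0.740 CPM. In males it fell under the filter for testing with edgeR, and DESeq2 gave a log2FC of -1.30 for LatA with LatP (adjusted p = 0.246) and of -3.83 for MA with MP (adjusted p = 0.1003). In females LatA with LatP had a log2FC of -3.02 (edgeR adjusted p = 0.0391), which no longer passed the looser thresholds without any one of the 5 females (adjusted p between 0.0742 and 0.169) or with left and right counts added (0.290). Female MA with MP did not pass (edgeR adjusted p = 0.143).

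The family members lie beside one another on chromosome 5 of the later assembly IU_Otau_3.0, which was used for names and gene order only. The order there was odd-skipped-like, *sister of odd and bowl*, the unnamed coding gene LOC111414915, the noncoding LOC139429873, *drumstick*, a further noncoding gene and the unnamed coding gene LOC111419077. LOC111414915 had no count in any library. LOC111419077 was high in every region, with a mean of 1249 CPM in LatA, 892 in LatP, 1449 in MA and 1018 in MP, and so did not share the posterior pattern. The annotated interval of LOC139429873 spans *drumstick*, and the strand setting used in counting is not given, so reads of the 2 genes may not be told apart.

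Transcripts with a pattern most like *drumstick* were sought by Pearson's r of log2(CPM + 1) over 44 values, 1 for each animal and region, among 11298 transcripts with a mean of at least 1 CPM. The first was *sister of odd and bowl* (r = 0.95), followed by *araucan* (XM_023044165.1, r = 0.93), 2 transcripts of *mab-21* (XM_023052984.1, r = 0.90, and XM_023052985.1, r = 0.90) and *mirror* (XM_023058224.1, r = 0.89). *araucan* and *mirror* are homeobox genes of the Iroquois group, which in flies mark the dorsal eye and head, and *mab-21* is a gene known from sensory organ patterning in the nematode *Caenorhabditis elegans*. The same 5 came first when the mean of each animal was subtracted, whereas by Spearman's rho only 2 of them remained among the first 5. Their levels in the anterior head were not alike. *araucan* kept 5.19 ± 1.76 CPM in male MA and 4.47 ± 0.694 CPM in female MA, against 26.8 ± 10.3 and 28.9 ± 11.9 CPM in MP. *mirror* had a higher mean in LatP than in MP in both sexes, 26.4 against 15.8 CPM in males and 40.3 against 23.6 CPM in females.

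**Figure D4:**
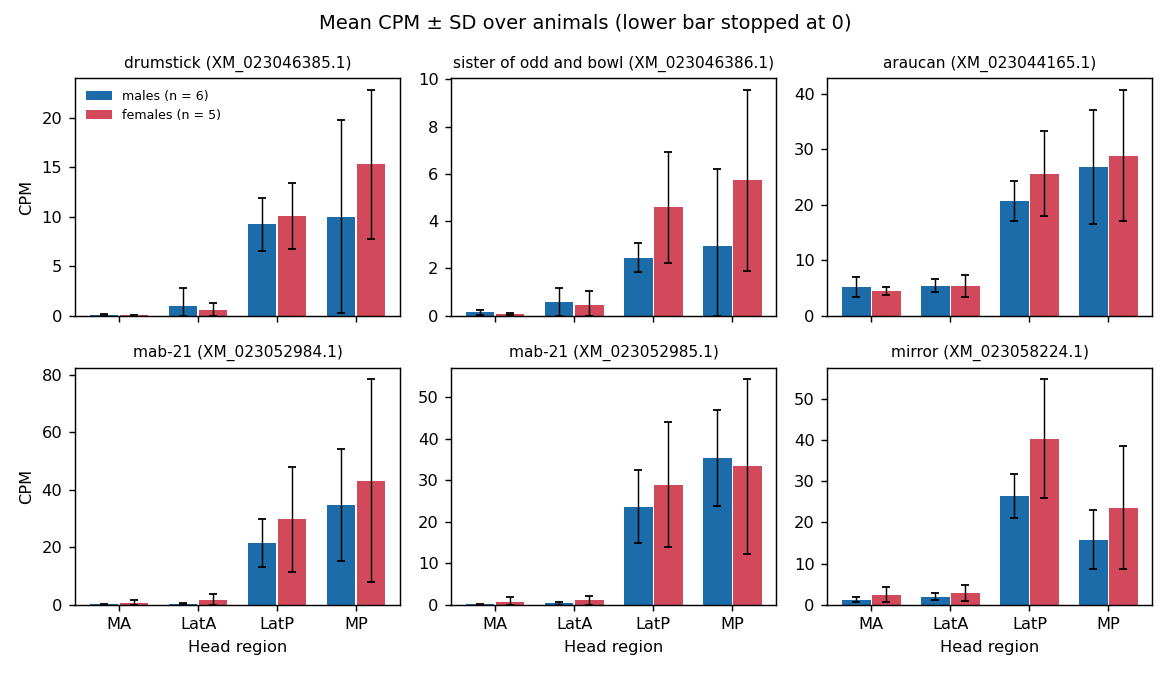
Mean CPM ± SD over animals (males n = 6, females n = 5) of *drumstick* and of the 5 transcripts whose pattern was most like it, by head region. Each panel has its own axis from 0, and lower error bars stop at 0. *drumstick*, *sister of odd and bowl* and both *mab-21* transcripts are near 0 in MA, whereas *araucan* keeps 5.19 CPM in males and 4.47 CPM in females there.

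Genes of the Notch and Hedgehog pathways that have a name here were few. All come from the study's list of transcripts that differed between regions of these libraries. Their direction, the share that passed and the size of their medians are therefore not independent evidence, and the values for all transcripts are given for scale only. The Notch list held only 1 transcript, *hairy* (XM_023054958.1), a repressor of transcription, which ranked sixth in likeness to *drumstick* (r = 0.88). Whether Notch signaling was active in these pieces was not tested. *hairy* had a log2FC of -1.24 and -1.40 for LatA with LatP in males and females (edgeR adjusted p = 8.09e-04 and 3.46e-04), under the strict fold threshold. The Hedgehog list held *hedgehog*, a secreted signal, *invected* and *engrailed*, homeobox genes of posterior compartments, and 2 isoforms of *cubitus interruptus*, the transcription factor of the pathway. For LatA with LatP, 3 of the 4 tested in males and 2 of the 4 in females passed the looser thresholds, all higher in LatP, where 3.33% and 2.59% of all transcripts passed, with list medians of -2.03 and -2.03 against 0.0069 and -0.026 for all transcripts. For MA with MP, 4 of 5 in males and 2 of 5 in females passed, all higher in MP, where 2.24% and 0.593% of all transcripts passed, with medians of -4.31 and -4.24 against -0.046 and -0.013. At the strict thresholds, *invected* passed in males for LatA with LatP (log2FC -2.56, adjusted p = 3.35e-04), and *hedgehog* passed in females for LatA with LatP (-2.04, adjusted p = 1.97e-05) and for MA with MP (-6.66, adjusted p = 4.14e-04). With the animal as a block this last call missed the strict thresholds (adjusted p = 0.0115). For MA with MP at the looser thresholds, the block took away *engrailed* and *cubitus interruptus* isoform X3 in males (adjusted p = 0.278 and 0.0587) and *invected* in females (0.0645), and added *hedgehog* in males (0.0411). The male *hedgehog* values for MA turn on 1 library, which held 23 of the 25 *hedgehog* counts in male MA. In the right LatA piece of male 1, by contrast, *hedgehog* had 0 CPM. Why these pieces departed from the others was not tested.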

How the data were processed

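Libraries were single-end and made with a stranded mRNA kit. Per the submitters' processing notes and the study's methods, the authors trimmed reads with Trimmomatic 0.32, mapped them with Bowtie2 2.3.2 to NCBI gene models of *O. taurus* and estimated counts per transcript with RSEM 1.3.0. The deposited values are these expected counts, with no normalization. RSEM divides reads between transcripts, and 74.3% of all values were exactly whole, with no tolerance.

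Expected counts were rounded to whole numbers and tested with edgeR 4.0.16 (limma 3.58.1, R 4.3.3) after TMM scaling, keeping transcripts with more than 1 CPM in 2 or more libraries of a comparison. As in the study, regions were compared within each sex with left and right pieces as separate replicates, so p-values count 2 pieces of 1 animal as independent. SE is the absolute log2FC divided by the square root of F. Exact permutation tests used 1 value per animal and region, log2(CPM + 1), left and right averaged, and were two-sided, as were the permutation tests of correlations. The labels give replicate numbers, and pieces of 1 sex with the same number were taken as pieces of 1 animal. Deviations of pieces of 1 animal from their group means correlated at 0.25 to 0.54 between regions, and with the animal as a block the fits were repeated. For left with right LatA in males, the lowest animal stood at 0.044. The scripts were tested on simulated counts. DESeq2 1.42.0, other scalings, no filter, and each animal left out in turn were tried as alternatives.

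The rule for named transcripts takes *drumstick*, all odd-skipped family transcripts, *lines*, the Notch and Hedgehog transcripts called in a comparison, and the 5 transcripts most like *drumstick*. Names of 368 transcripts were used, and no transcript named *lines*, and none of the fat body markers looked for, was among them. The hemocyte list held 1 transcript (prophenoloxidase 2) and the neuron list 1 (ELAV-like). Members and lists were chosen with earlier results of these data known. Of the 23725 transcripts, 15104 were matched to assembly IU_Otau_3.0. No sequence is shown, because none was in the files used here. Libraries have no molecular identifiers, so duplicates count as reads.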

Additional observations from a re-analysis of the deposited data

Results flagged for a closer look

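Male 2 stood apart from the other males in its *drumstick* level in 2 regions. In MP it had 28.3 CPM, and the next highest male had 11.5 CPM, a gap of 0.634 of the range over 6 males. In right LatA it had 7.51 CPM, and the next highest had 0.496 CPM, a gap of 0.934 of the range. In MA, male 5 had 0.281 CPM from 3 counts, and the next highest male had 0.0829 CPM from 1 count, which is at the floor of detection. Dixon's test at 95%, used here, picks about 1 in 20 groups by chance if the values are normally distributed. Counts with many zeros, as in MA and LatA, are not, so the rate for them is not known.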

How the results depend on the processing

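The 4 comparisons of an anterior with a posterior region kept the direction of *drumstick* in all 56 alternative edgeR and DESeq2 settings. The looser thresholds are among these settings and use the chosen fit, so there the direction could not differ. Each comparison missed the strict thresholds in the chosen fit and passed the looser ones with the same log2FC (-3.19 and -4.01 for LatA with LatP, -7.17 and -8.66 for MA with MP, males first). The strict ones were passed with DESeq2 in females for LatA with LatP (-3.98, and -2.49 with a prior) and in both sexes for MA with MP (males -7.44 and -3.94, females -9.05 and -6.38), with 1 fit for all libraries of a sex for MA with MP (males -7.17, females -8.69), and with the replicate block for male LatA with LatP (-4.82). With left and right counts added, that block gave -4.86 (adjusted p = 0.0516) in males and -4.65 (0.173) in females, and neither passed the looser thresholds. Leaving out each animal gave -4.91 to -2.87 for that comparison, with male 2 at the lower end.

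Signs turned where *drumstick* had not passed. For LatP with MP in males the log2FC was 0.31 with the replicate block, 0.45 with sides added and the block, and between -0.25 and 0.48 without single males. *sister of odd and bowl* behaved alike there (0.23, 0.37, and -0.42 to 0.48), and in females it ranged from -0.47 to 0.067 without single animals. odd-skipped-like in female LatP with MP moved to -0.036 (DESeq2), -0.028 (RLE size factors), -0.029 (DESeq2 with a prior), and -0.13 to 0.21 without single animals. Without single animals, males over females ranged from -1.13 to 1.41 in LatA and from -0.26 to 0.033 in LatP, and the sex difference from -0.92 to 1.68 for LatA with LatP (-0.25 with the block) and from -1.82 to 1.48 for LatA with MA. Left over right LatA in males was 0.12 with the block. In the exact tests a pseudocount of 0.1 gave -0.24 for males over females in LatA, -0.12 and -0.37 for the sex difference of LatA with LatP and with MA, and 0.033 for left over right LatA in males. Plain library totals gave -0.76 for males over females in LatP, which kept the sign of the chosen setting (-0.10) and was larger in size. By Spearman's rho, 2 of the 5 transcripts most like *drumstick* remained. The replicate block brought male LatA with LatP of *drumstick* (-4.82) and of *sister of odd and bowl* (-2.65) past the strict thresholds. It changed no other call of the 3 family members. The causes were not tested. LatA with MA and left with right LatA could not be fitted without the animal that held most LatA counts (male 2 in males, female 1 or 5 in females), and the edgeR test of the sexes in MA gave a value only without the filter.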

Other observations

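Transcripts of blood cells and nerve cells were set beside *drumstick* in the LatA pieces, where it varied most. Over the 22 LatA pieces the r with *drumstick* in log2(CPM + 1) was -0.09 for prophenoloxidase 2, an enzyme of blood cells, and -0.27 for the ELAV-like transcript, a marker of neurons. In MP, where the mean CPM of *drumstick* was highest, ELAV-like had medians of 0.546 CPM in males and 0.764 CPM in females, against 4.75 and 4.74 CPM in LatP.

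The coding gene LOC111419079, the next but one after LOC111419077 on the side of *drumstick* away from its family, held 54 counts over all 66 libraries.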
